A study of Mus musculus with 10 samples.

Results

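The genes examined were those that control the pyruvate dehydrogenase complex and the entry of pyruvate into mitochondria: the kinases *Pdk1*, *Pdk2*, *Pdk3* and *Pdk4*, the phosphatases *Pdp1* and *Pdp2*, the E1 alpha subunit *Pdha1*, the mitochondrial pyruvate carriers *Mpc1* and *Mpc2*, and *Ldha*, which encodes the A subunit of lactate dehydrogenase. They were chosen by name, as 10 of the 43629 genes in the table, and all 10 were among the 14143 genes that passed the filter on low counts. RNA-seq was run on the livers of 10 male KL mice, an inducible, genetically engineered lung cancer model that carries *Lkb1* flox/flox, backcrossed to the FVB strain. In these adults a lung tumour was started by adenovirus carrying Cre under the CMV promoter, given through the nose, so that every infected cell could recombine and not a single defined cell type. All 10 mice were of this model and received the virus, and no liver from a mouse without tumour was among them. Cancer anorexia–cachexia syndrome (CACS) was assigned by body weight, as a loss of more than 15% from the peak weight. The 5 mice labelled non-cachectic (NCACS, mice 11 to 15) had weight changes of -3 to -14%. The 5 cachectic mice (CACS, mice 16 to 20) had changes of -29 to -33%. The time of day and the feeding state at collection were not given in the sources used here.

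Pyruvate formed in the cytosol can be reduced to lactate by lactate dehydrogenase, or it can be carried across the inner mitochondrial membrane by MPC1 and MPC2, which work together as a heterodimer. In the mitochondrion the pyruvate dehydrogenase complex turns it into acetyl-CoA, whereas pyruvate carboxylase turns it into oxaloacetate, the first step of gluconeogenesis. The PDK enzymes phosphorylate serines of the E1 alpha subunit and switch the complex off, and the PDP enzymes remove these phosphates. In liver, PDK2 is known as the broadly expressed isoform, PDK4 rises with fasting under PPAR alpha and FOXO1, and PDK1 is a target of hypoxia-inducible factor (HIF). The question the design put to these genes was whether the kinases, *Pdk3* among them, differ between cachectic and non-cachectic livers in a way that would bear on the diversion of pyruvate to glucose.

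The serines that the kinases act on lie in *Pdha1* (chrX:160122209-160138413, reverse strand, GRCm38), and their coding sequence is given because every kinase and phosphatase described here acts on it. The reference sequence for the first and second sites covers codons 287 to 306 of the 390 codons and spans exons 9 and 10 of 11, between positions 160124609 and 160126234. The third site lies in exon 7, at chrX:160127618-160127656, in codons 226 to 238. The capitals mark the serine codons 293, 300 and 232, counted from the start codon.
Pdha1 sites 1 and 2: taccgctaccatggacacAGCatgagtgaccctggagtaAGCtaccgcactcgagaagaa
Pdha1 site 3: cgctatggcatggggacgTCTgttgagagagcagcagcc

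RefSeq promoter windows on GRCm38.p6 (250 bases before to 50 after each start) were found for 9 of the 10 genes, 13 windows in all. *Pdp1* had no entry. The windows of *Pdk2*, *Pdk3* and *Pdk4* are shown because these are the most abundant, the least abundant and the most variable kinase transcripts described next. Capitals mark matches, on either strand, to any of 5 motifs: the HIF cores ACGTG and GCGTG, the E-box CACGTG used by clock factors, the STAT motif TTCNNNGAA and the D-box TTATGNAA. The E-box contains ACGTG on each strand, so 1 E-box counts as 2 matches to that core. The windows lie at chr11:95041322-95041621 (*Pdk2*), chrX:93832101-93832400 (*Pdk3*) and chr6:5496229-5496528 (*Pdk4*), all on the reverse strand, and are written 5′ to 3′.
Pdk2: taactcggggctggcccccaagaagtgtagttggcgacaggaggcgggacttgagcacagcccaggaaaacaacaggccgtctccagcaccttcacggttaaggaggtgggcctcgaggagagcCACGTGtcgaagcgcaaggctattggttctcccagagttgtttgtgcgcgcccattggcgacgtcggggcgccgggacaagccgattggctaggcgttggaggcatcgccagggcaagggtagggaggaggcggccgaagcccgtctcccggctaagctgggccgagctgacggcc
Pdk3: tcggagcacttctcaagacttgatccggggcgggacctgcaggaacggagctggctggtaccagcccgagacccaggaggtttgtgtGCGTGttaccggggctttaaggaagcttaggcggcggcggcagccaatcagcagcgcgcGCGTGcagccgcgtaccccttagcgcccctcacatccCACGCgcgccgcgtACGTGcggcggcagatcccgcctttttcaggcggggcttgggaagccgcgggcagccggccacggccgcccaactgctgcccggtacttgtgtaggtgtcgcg
Pdk4: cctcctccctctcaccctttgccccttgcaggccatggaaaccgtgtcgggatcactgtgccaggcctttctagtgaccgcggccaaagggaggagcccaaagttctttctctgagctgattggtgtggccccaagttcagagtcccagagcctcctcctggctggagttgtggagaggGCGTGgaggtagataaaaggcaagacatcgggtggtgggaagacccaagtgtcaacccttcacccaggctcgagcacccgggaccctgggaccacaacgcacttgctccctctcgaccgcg

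The *Pdk2* window held 1 E-box, the *Pdk3* window held 1 ACGTG and 3 GCGTG cores, and the *Pdk4* window held 1 GCGTG core. Among the other windows, the first of *Ldha*, a classical HIF target, held 2 E-boxes, 5 matches to ACGTG (4 of them within the E-boxes) and 2 to GCGTG. The *Pdha1* window held the most GCGTG cores, 4. The first window of *Pdk1* and the second of *Ldha* held 2 each, the first window of *Mpc1* and that of *Mpc2* held 1 each, and the *Pdp2* window held 1 E-box. The second windows of *Pdk1*, *Pdk2* and *Mpc1* held no match. None of the 13 windows held the letters of the STAT motif or of the D-box. Of all 32851 RefSeq windows, 19.6% held ACGTG, 32.4% held GCGTG, 7.15% held the E-box, 8.3% held the STAT motif and 3.38% held the D-box. The *Pdk3* window had 35 CpG dinucleotides, against 25 in the first *Pdk2* window, 12 in the *Pdk4* window and a median of 7 over all windows. Among the 13 windows the number ran from 2 (second of *Pdk1*) to 39 (first of *Mpc1*). The mice were of FVB background and the windows come from the reference strain, so these letters describe the reference only.

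The depth was similar in all livers, with total counts of 31459179 to 40746178 and a median of 35040000. The hepatocyte markers *Alb*, *Apoa1*, *Ttr*, *Serpina1c* and *Cps1* summed to 63830 to 113100 CPM (counts scaled to library size, as defined by edgeR) in NCACS and 103900 to 131000 CPM in CACS livers, with the lowest sum in NCACS mouse 15, and none of the 5 was called by edgeR, DESeq2 or limma-voom (1 had an unadjusted edgeR p under 0.05). All 7 macrophage markers were lower in CACS livers (median log2 fold change -0.71). In edgeR's test 0 passed the threshold and 4 had an unadjusted p under 0.05, as did 21.6% of all tested genes. DESeq2, which called 1386 of all 14143 tested genes, called 3 of the 7 markers, and limma-voom called 0. Their sums were 158.4 to 316.0 CPM in NCACS and 105.9 to 213.0 CPM in CACS livers. Of 6 tested lymphocyte markers 5 were lower, with sums of 10.06 to 22.02 CPM and 6.90 to 14.02 CPM. None of these markers was at 0 in every liver. Fewer cells of a type and less RNA per cell cannot be told apart in whole liver, and the part of these markers in the results that follow was not tested. *Sftpa1*, a lung surfactant gene among 3 tested lung markers, passed the threshold as higher in CACS livers (log2 fold change 1.27, adjusted p = 0.0323 in edgeR) but missed it in 7 of the 10 fits lacking a single mouse, and all 5 lung markers together made up at most 8.72 CPM.

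The transcripts were first ordered by their level, taken as CPM per kilobase of merged exons, with libraries scaled by TMM (the trimmed mean of log ratios between libraries). *Ldha* led with a geometric mean of 233.6 CPM per kilobase over the 10 livers, 6.58-fold above *Pdk2* at 35.5. *Pdk2*, the main hepatic kinase isoform, stood above *Pdha1*, the subunit its protein phosphorylates, at 20.5. *Mpc2* followed at 17.7 and its partner *Mpc1* at 10.1, so that the carrier transcripts differed by 1.76-fold in the same direction in 10 of 10 livers. *Pdk1* came next at 7.33, then *Pdp2* at 4.01 and *Pdk4* at 1.21. *Pdp1* (0.209) and *Pdk3* (0.178) were the least abundant of the 10 genes. Per length, *Ldha* lay above 98.6% of tested genes, *Pdk2* above 92.3% and *Pdk3* above 8.14%.

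**Figure D1:**
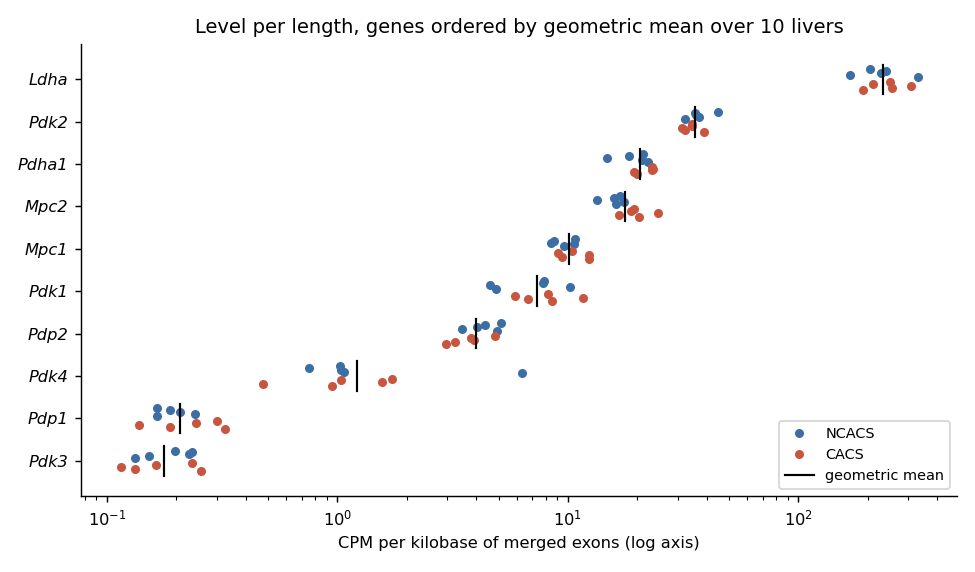
Level of each gene in CPM per kilobase of merged exons (log axis), with 1 point per liver, blue for NCACS and red for CACS, and a black bar at the geometric mean over the 10 livers. The genes run from *Ldha* at 233.6 to *Pdk3* at 0.178, and the point of *Pdk4* far to the right of its group is NCACS mouse 15, at 6.31.

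Each neighbouring pair in this order was compared within livers by a two-sided exact sign-flip permutation test, with Benjamini-Hochberg adjustment over the 9 pairs. In 8 pairs the levels differed beyond the spread between livers, with adjusted exact p-values of 0.00352 to 0.00879. *Pdp1* and *Pdk3* did not, with *Pdp1* higher in 7 of 10 livers (adjusted exact permutation p = 0.0703). The step from *Pdha1* to *Mpc2* was the smallest of those that differed, 0.21 on the log2 scale, and it depended on the length used. The p-values do not cover the choice of length, which is the same for every liver. With the longest annotated transcript in place of the merged exons, *Mpc2* stood above *Pdha1* (log2 difference -0.27 for *Pdha1* minus *Mpc2*, adjusted exact permutation p = 0.00251). That length left the rest of the order as it was, but it raised the geometric mean to 426.0 for *Ldha*, 32.4 for *Mpc2* and 21.9 for *Mpc1* (CPM per kilobase), and it brought *Pdp1* minus *Pdk3* from 0.23 to 0.06 on the log2 scale (exact permutation p = 0.623).

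Among the kinases, *Pdk2* supplied most of the summed transcript level in each of the 10 livers. Its share of the kinase sum was 83.0, 80.3, 86.0, 76.5 and 74.1% in NCACS mice 11 to 15 and 77.4, 82.9, 70.1, 81.4 and 80.1% in CACS mice 16 to 20. The group means were 80.0% ± 4.81 and 78.4% ± 5.04 (SD, n = 5 each), and the groups overlapped. *Pdk1* supplied 15.1% ± 4.28 in NCACS and 18.6% ± 4.46 in CACS livers, with the highest share, 26.1%, in CACS mouse 18. *Pdk3* supplied 0.411% ± 0.116 and 0.407% ± 0.118, and never more than 0.544% in any liver. The share of *Pdk4* was 1.69 to 2.49% in 4 NCACS livers, 14.5% in NCACS mouse 15 and 1.203 to 3.844% in CACS livers.

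**Figure D2:**
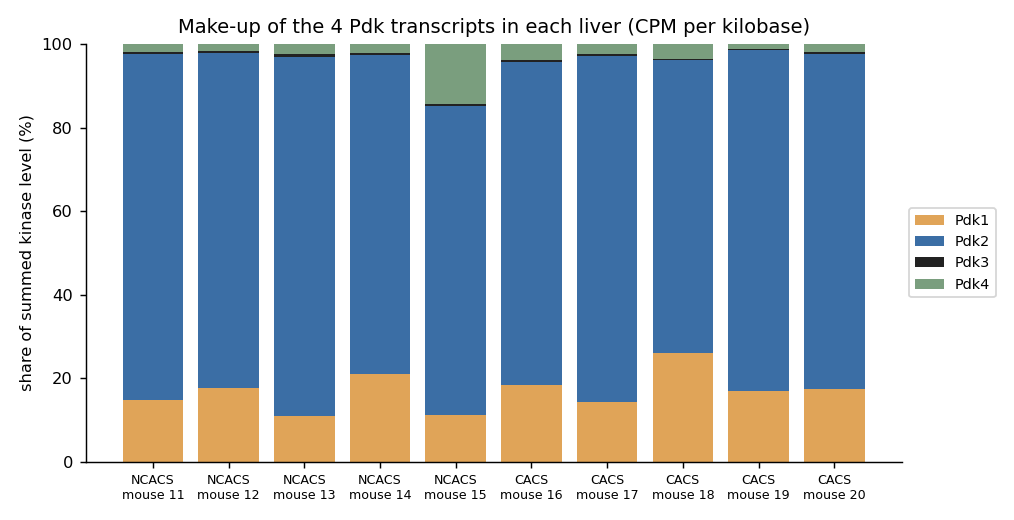
Share of each kinase in the summed level of *Pdk1* to *Pdk4* (CPM per kilobase, percent) in each of the 10 livers, 1 stacked bar per mouse. *Pdk2* (blue) fills 70.1 to 86.0% of every bar, *Pdk3* (black) is a thin line in all of them, and *Pdk4* (green) reaches 14.5% in NCACS mouse 15.

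Of the phosphatases, *Pdp2* supplied 95.6% ± 1.38 of their summed level in NCACS and 93.9% ± 2.34 in CACS livers (SD, n = 5 each). The kinase sum exceeded the phosphatase sum 10.3-fold ± 1.66 in NCACS and 11.3-fold ± 2.25 in CACS livers, ranging from 8.58 in NCACS mouse 15 to 14.8 in CACS mouse 20. The size of this ratio depended on the length used. With the longest annotated transcript it was 14.4-fold ± 2.47 in NCACS and 15.9-fold ± 3.17 in CACS livers, ranging from 11.6 to 20.8 in the same mice. These are ratios of transcript levels per length and carry no measure of enzyme activity.

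In the comparison of CACS with NCACS livers, 0 of the 10 genes passed the threshold of an adjusted p under 0.05 in edgeR's quasi-likelihood test. Over all tested genes 3.8% did (538 of 14143), 1.89% as higher in CACS and 1.92% as lower. By direction alone, 6 of the 10 were higher and 4 lower, with a median log2 fold change of 0.10 against -0.01 over all tested genes. Only *Mpc2* had an unadjusted p under 0.05 in edgeR's test, 1 of 10, where 21.6% of all tested genes did. The values of the groups overlapped for all 10 genes, while for 7.07% of tested genes they did not. DESeq2, which called 1386 of the 14143 tested genes, and limma-voom, which called 509, also called 0 of the 10. Without NCACS mouse 15 edgeR called 0 of the 10.

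**Figure D3:**
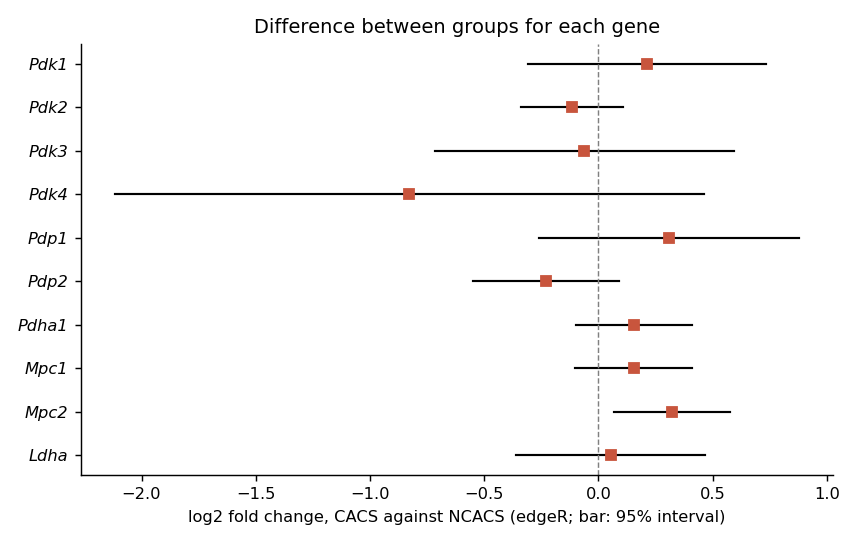
Log2 fold change of each gene in CACS against NCACS livers (squares; edgeR, n = 5 each) with its 95% interval (lines), and a dashed line at 0. The interval of *Mpc2* alone lies above 0, from 0.07 to 0.57, that of *Pdk4* is the widest, from -2.12 to 0.46, and none of the 10 passed the adjusted threshold.

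*Mpc2* (ENSMUSG00000026568, chr1:165460637-165481214, forward strand) encodes the second carrier subunit. It had 123.2, 116.9, 98.2, 128.4 and 119.1 CPM in NCACS mice 11 to 15 and 142.7, 137.5, 180.8, 122.7 and 148.8 CPM in CACS mice 16 to 20. In 4 of the 5 CACS livers it was above the highest NCACS liver, and CACS mouse 19 lay within the NCACS range. The group means were 117.2 ± 11.5 and 146.5 ± 21.4 CPM (SD, n = 5 each), and the log2 fold change was 0.32 with a standard error of 0.12 (adjusted p = 0.134 in edgeR's test, 0.0854 in DESeq2). Leaving out single mice gave values of 0.24 to 0.38 and adjusted edgeR p-values of 0.115 to 0.232.

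*Mpc1* (ENSMUSG00000023861, chr17:8282904-8297661, forward strand), whose product forms the heterodimer with MPC2, had 22.3, 18.1, 17.7, 22.1 and 20.1 CPM in NCACS mice, against 21.7, 18.8, 25.6, 19.7 and 25.7 CPM in CACS mice. CACS mice 18 and 20 were above all NCACS livers, and the other 3 were within their range. *Mpc1* had a log2 fold change of 0.15, with a 95% interval of -0.10 to 0.41 (adjusted p = 0.477 in edgeR's test). The log2 ratio of *Mpc1* to *Mpc2* counts was -2.55 ± 0.09 in NCACS and -2.72 ± 0.14 in CACS livers (SD, n = 5 each). The difference of -0.17 did not pass an exact permutation test (two-sided p = 0.0635, adjusted p = 0.317 over 5 ratios), whose smallest possible p is 0.00794. An exon of *Mpc1* overlaps *4930506C21Rik* on the opposite strand and a processed pseudogene, *Mpc1-ps*, exists, so a few of its reads may be assigned wrongly.

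*Pdha1* (ENSMUSG00000031299) had 78.8, 68.5, 55.3, 78.4 and 83.3 CPM in NCACS mice, against 86.1, 87.2, 86.0, 72.5 and 74.1 CPM in CACS mice. CACS mice 16, 17 and 18 were above every NCACS liver, and the lowest value was that of NCACS mouse 13. *Pdha1* had a log2 fold change of 0.16, with a 95% interval of -0.10 to 0.41 (adjusted p = 0.470 in edgeR's test), and it was 0.07 without NCACS mouse 13. Its exons overlap *Map3k15* on the opposite strand, and the strand setting of the counting was not given in the sources used here.

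**Figure D4:**
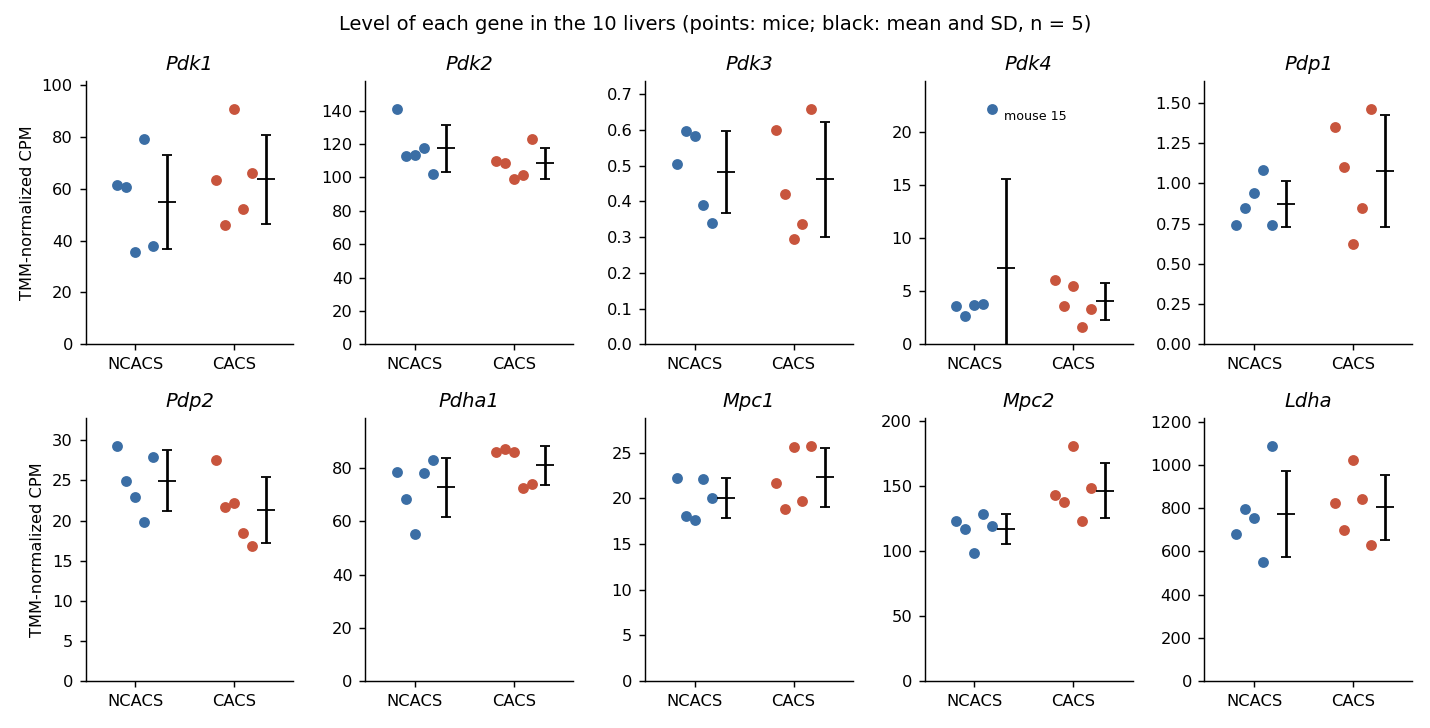
TMM-normalized CPM of the 10 genes (1 panel each, linear axes from 0), with 1 point per mouse in order of mouse number within NCACS (blue) and CACS (red), and the mean and SD of 5 livers in black. The groups overlap in every panel. In the *Pdk4* panel the lower end of the NCACS bar is cut off at 0, and NCACS mouse 15 stands at 22.1 CPM.

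*Pdk2* (ENSMUSG00000038967, chr11:95026258-95041354, reverse strand) varied least among the kinases. It had 140.9, 112.8, 113.6, 117.6 and 102.1 CPM in NCACS mice, against 109.6, 108.8, 99.1, 101.4 and 123.3 CPM in CACS mice. Its coefficient of variation was 12.2% in NCACS and 8.73% in CACS livers, where the medians over all tested genes were 17.97% and 17.01%. The log2 fold change was -0.11 with a 95% interval of -0.34 to 0.11 (adjusted p = 0.556 in edgeR's test), which corresponds to 0.791-fold to 1.08-fold.

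*Pdk1* (ENSMUSG00000006494, chr2:71873224-71903858, forward strand) had 61.5, 60.6, 35.6, 79.3 and 37.8 CPM in NCACS mice, against 63.6, 45.9, 90.8, 52.2 and 66.1 CPM in CACS mice. Values were spread as widely within the groups as between them, and 1 CACS liver, that of mouse 18, was above all NCACS livers. *Pdk1* had a log2 fold change of 0.21, with a 95% interval of -0.31 to 0.73, and it ranged from 0.05 without CACS mouse 18 to 0.38 without NCACS mouse 14. The ratio of *Pdk1* to *Pdk2* was 0.35 higher in CACS livers on the log2 scale, which did not pass the exact permutation test (two-sided p = 0.238, adjusted p = 0.397).

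*Pdk3* (ENSMUSG00000035232, chrX:93764607-93832201, reverse strand), whose product is known as the kinase isoform least sensitive to inhibition by pyruvate, had only 9 to 24 counts per liver. Its levels were 0.504, 0.598, 0.582, 0.391 and 0.340 CPM in NCACS mice, against 0.5996, 0.420, 0.294, 0.338 and 0.659 CPM in CACS mice. CACS mice 16 and 20 were above and CACS mice 18 and 19 below all NCACS livers. The fold between groups had a 95% interval of 0.609 to 1.51 around a log2 fold change of -0.06. Fits lacking a single mouse gave values from -0.22 (without CACS mouse 20) to 0.06 (without CACS mouse 18).

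*Pdk4* (ENSMUSG00000019577, chr6:5483351-5496309, reverse strand) encodes the kinase induced by fasting. It had 3.62, 2.64, 3.65, 3.76 and 22.1 CPM in NCACS mice, against 6.05, 3.65, 5.48, 1.66 and 3.32 CPM in CACS mice. NCACS mouse 15 was thus 6.48-fold above the mean of the other 4 NCACS livers, 3.42 ± 0.52 CPM (SD, n = 4), and above every CACS liver. Its coefficient of variation in NCACS livers was 117.1%, higher than that of 99.6% of tested genes, and 15.3% over the other 4. The log2 fold change was -0.83 with a standard error of 0.59 (adjusted p = 0.446 in edgeR's test). Without NCACS mouse 15 it was 0.24 (adjusted p = 0.726 in the same test), and the log2 *Pdk4* to *Pdk2* difference likewise turned from -0.31 to 0.28.

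The same mouse had the largest weight loss of its group, with a change of -14% against -3 to -11% in the other NCACS mice. It also had outlying levels of many genes of the circadian clock. In this transcriptional loop BMAL1 (encoded by *Arntl*) and its partners drive their own repressors. For 13 of 17 clock genes NCACS mouse 15 was at an end of the 10 livers, 4 times the highest and 9 times the lowest. Over all 14143 tested genes it was at an end for 29.3%, and the other 9 livers were at an end for 9.77 to 29.6%. *Arntl* had 33.8 CPM in it and at most 8.13 CPM in the other livers. *Dbp*, a transcription factor of the clock output, had 1.27 CPM in it and 18.8 to 82.9 CPM in the others, and the repressor gene *Per3* had 2.50 CPM against 36.5 to 84.9 CPM. Among 20 genes of the PPAR alpha and fasting response, mouse 15 was the highest of the 10 livers for 3 and the lowest for 1. *Cpt1a*, which admits fatty acids to mitochondria, had 415.0 CPM in it and 272.0 to 455.3 CPM in the other NCACS livers. How far the state of the clock or the weight loss of this mouse took part in its *Pdk4* level was not tested.

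**Figure D5:**
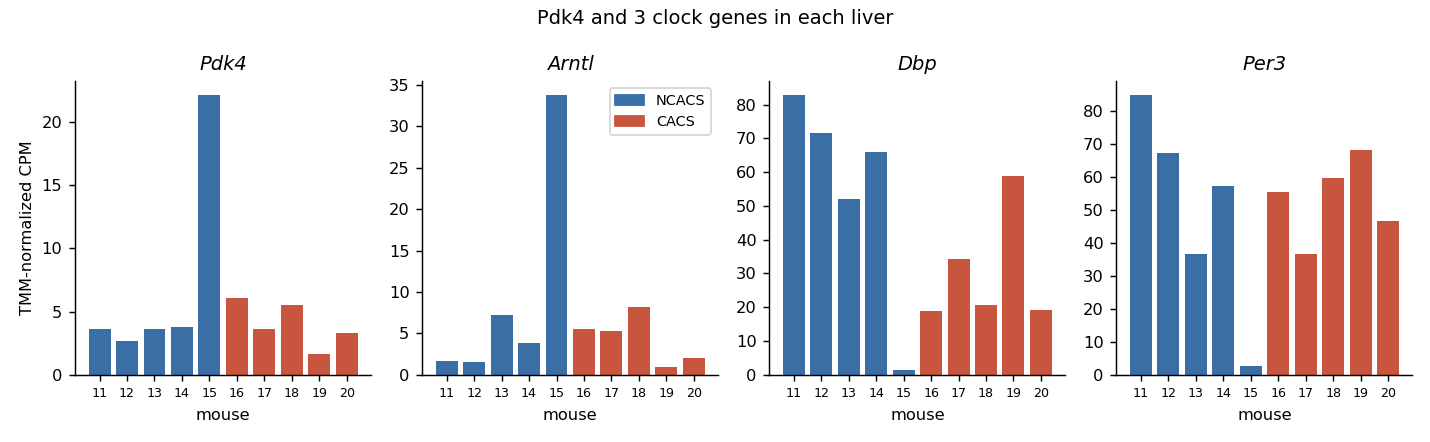
TMM-normalized CPM of *Pdk4* and of the clock genes *Arntl*, *Dbp* and *Per3* in each liver (bars from 0; blue NCACS, mice 11 to 15; red CACS, mice 16 to 20). NCACS mouse 15 has the highest *Pdk4* (22.1) and *Arntl* (33.8) and the lowest *Dbp* (1.27) and *Per3* (2.50).

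*Pdp2* (ENSMUSG00000048371, chr8:104591451-104599026, forward strand), the main phosphatase transcript, had 29.3, 24.9, 22.9, 19.8 and 28.0 CPM in NCACS mice, against 27.5, 21.7, 22.2, 18.5 and 16.9 CPM in CACS mice. CACS mice 19 and 20 were below all NCACS livers. The log2 fold change was -0.23 with a 95% interval of -0.55 to 0.09 (adjusted p = 0.394 in edgeR's test). *Pdp1* (ENSMUSG00000049225, chr4:11958184-11966452, reverse strand), the calcium-sensitive phosphatase, had only 19 to 54 counts per liver. It had 0.742, 0.847, 0.938, 1.08 and 0.741 CPM in NCACS mice, against 1.35, 1.10, 0.620, 0.845 and 1.46 CPM in CACS mice. CACS mice 16, 17 and 20 were above and CACS mouse 18 was below all NCACS livers, and the 95% interval of the log2 fold change was -0.26 to 0.88. The ratio of *Pdp1* to *Pdp2* was 0.48 higher in CACS livers on the log2 scale, which did not pass the exact permutation test (two-sided p = 0.183, adjusted p = 0.397).

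*Ldha* (ENSMUSG00000063229, chr7:46841475-46855627, forward strand) had 678.4, 795.9, 754.6, 551.4 and 1088 CPM in NCACS mice, against 823.2, 699.1, 1023, 843.7 and 629.4 CPM in CACS mice. All CACS values fell inside the NCACS range. The log2 fold change was 0.05 with a 95% interval of -0.36 to 0.47, and it turned negative without NCACS mouse 14 (-0.04) or CACS mouse 18 (-0.05). The ratio of *Ldha* to *Pdha1* differed by -0.10 on the log2 scale (two-sided exact permutation p = 0.675, adjusted p = 0.786). The processed pseudogenes *Ldha-ps* and *Ldha-ps2* can share reads with this gene, which leaves its count slightly uncertain.

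Within groups, the genes moved together in part. Over the 10 livers, after each group mean was subtracted, log2 CPM of *Mpc1* and *Mpc2* had a Pearson r of 0.80, and *Pdk1* had an r of 0.72 with *Mpc1* and of 0.79 with *Mpc2*. *Pdk3* and *Pdp1*, both at few counts, had an r of 0.73. The lowest values were those of *Pdk2* with *Ldha* (-0.72, and -0.59 without NCACS mouse 15) and of *Pdp1* with *Ldha* (-0.69). These are descriptions over libraries that share their scaling, and carry no test.

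The genes whose pattern was most like that of a member were found in the same way among 9235 genes with a mean of at least 5 CPM. For *Pdk1* they were *Cyp2d26* (r = 0.948), *Abcd2* (0.944) and *Cyp2b9* (0.931). For *Pdk2* they were *Gmnn* (0.919), *Zap70* (0.913) and *Nde1* (0.910). For *Pdk4* they were *Tab2* (0.978), *Pip4p2* (0.963) and *Cpeb4* (0.956), and without NCACS mouse 15 the r of these 3 genes was 0.921, 0.930 and 0.910. For *Pdp2* they were *Tdrp* (0.932), *Pcgf5* (0.925) and *Brap* (0.912), and for *Ldha* they were *Ulk2* (0.933), *Zc3hc1* (0.930) and *Mcm7* (0.929). Without NCACS mouse 15 the r of the genes named for members other than *Pdk4* was 0.879 (*Zc3hc1*) to 0.947 (*Cyp2b9*). All these genes were picked as the highest r among 9235 genes over only 10 livers. Their r carries no test and is no evidence of shared regulation.

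The remaining genes of the complex and its cofactors were described from a list of 11, of which 10 were tested and *Pdha2*, the testis form of E1 alpha, was at 0 in every liver. None passed the threshold in edgeR's test, and 2 were higher and 8 lower. An unadjusted edgeR p under 0.05 was found for 3 of the 10, and for 21.6% of all tested genes. DESeq2 called 1 of the 10, where it called 1386 of all 14143 tested genes, and limma-voom called 0. *Pdhb*, the E1 beta subunit that pairs with the *Pdha1* product, had 88.8 ± 10.8 CPM in NCACS mice, against 106.2 ± 14.4 CPM in CACS mice (log2 fold change 0.26, adjusted p = 0.220 in edgeR). *Dlat*, the E2 acetyltransferase core, had 42.3 ± 5.32 and 35.1 ± 3.72 CPM (-0.27, adjusted p = 0.171 in edgeR). *Lipt1*, a lipoyl transferase, differed by -0.26 on the log2 scale (adjusted p = 0.368 in edgeR; all SD, n = 5 each).

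Of 20 genes that make, use or carry pyruvate and its products, 18 were tested, 7 higher and 11 lower, with a median log2 fold change of -0.26. *Me2*, the mitochondrial malic enzyme that yields pyruvate from malate, fell from 2.45 ± 0.54 to 1.34 ± 0.28 CPM (SD, n = 5 each; log2 fold change -0.87, adjusted p = 0.0487 in edgeR's test), with every CACS liver below every NCACS liver. Fits lacking a single mouse gave an adjusted edgeR p of 0.0421 (without CACS mouse 17) to 0.104 (without CACS mouse 19), and 8 of the 10 missed the threshold, in the same direction. *Me2* was the only gene of this list past the threshold. Of the 18, 9 had an unadjusted edgeR p under 0.05, against 21.6% of all tested genes. DESeq2 called 5 genes, all lower (*Cs*, *Ldhd*, *Me1*, *Me2* and *Slc25a1*), and limma-voom called 0. Over all 14143 tested genes DESeq2 called 1386, more than the 538 of edgeR. *Ldhd*, a D-lactate dehydrogenase, had 293.0 ± 49.6 and 192.5 ± 34.6 CPM (-0.61, adjusted p = 0.0534 in edgeR), with no overlap between groups. *Cs*, the citrate synthase that takes up acetyl-CoA, had 131.1 ± 14.5 and 104.4 ± 9.58 CPM (-0.33, adjusted p = 0.0924 in edgeR), also with no overlap. *Slc25a1*, the mitochondrial citrate carrier, differed by -0.43 on the log2 scale (adjusted p = 0.1004 in edgeR).

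The regulators known for *Pdk4* were read from the list of 20 PPAR alpha and fasting genes, where 9 were higher and 11 lower. Of the 20, 4 had an unadjusted edgeR p under 0.05, close to the share over all tested genes (21.6%). *Foxo1*, a transcription factor of the fasting response, rose from 36.4 ± 6.18 to 54.0 ± 5.97 CPM (SD, n = 5 each; log2 fold change 0.57, adjusted p = 0.0375 in edgeR's test), with every CACS liver above every NCACS liver. Its adjusted edgeR p ran from 0.0395 (without NCACS mouse 13) to 0.0784 (without CACS mouse 16) with single mice left out and missed the threshold in 9 of those 10 fits, in the same direction. No other gene of the list passed in edgeR's test, and DESeq2 called *Plin2* as well. *Plin2*, a lipid droplet protein, had 575.4 ± 254.0 and 259.6 ± 107.6 CPM (-1.15, adjusted p = 0.0889 in edgeR). *Angptl4*, a lipase inhibitor, differed by 0.52 on the log2 scale (adjusted p = 0.177 in edgeR), and *Fgf21*, a fasting hormone, by 2.09 (adjusted p = 0.202 in edgeR).

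Of 16 HIF targets and regulators, the known class of *Pdk1* and *Ldha*, 15 were tested, 11 higher and 4 lower, and none passed. In edgeR's test 7 of the 15 had an unadjusted p under 0.05, against 21.6% of all tested genes. The median log2 fold change was 0.19. *Ankrd37* (1.29, adjusted p = 0.0583 in edgeR), *Bnip3*, a mitophagy receptor (0.72, adjusted p = 0.0727 in edgeR), and *Pfkfb3*, which makes the activator of phosphofructokinase (1.54, adjusted p = 0.0754 in edgeR), had positive log2 fold changes, and *Ndrg1* had a negative value (-1.66, adjusted p = 0.0656 in edgeR). DESeq2 called these 4 genes and *Vegfa*, where it called 1386 of all 14143 tested genes, and limma-voom called 0. Of the 17 clock genes none passed and 6 had an unadjusted edgeR p under 0.05, against 21.6% of all tested genes. The clock genes with the smallest p were *Bhlhe40* (log2 fold change 0.94, adjusted p = 0.0928 in edgeR), *Nr1d1* (-1.65, adjusted p = 0.0930 in edgeR), *Npas2* (-3.22, adjusted p = 0.123 in edgeR) and *Cry1* (1.02, adjusted p = 0.124 in edgeR). DESeq2 called 3 of the clock genes, *Bhlhe40*, *Cry1* and *Nr1d1*, and limma-voom called 0. *Npas2* had 7.81 CPM in NCACS mouse 15 and at most 0.873 CPM in any other liver.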

How the data were processed

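Livers of 5 NCACS and 5 CACS mice were profiled with stranded poly(A) libraries and single-end reads. The authors aligned reads to GRCm38 with STAR 2.4.1d and made raw counts per Ensembl gene with HTSeq 0.6.1, which they deposited without normalization; the annotation release and strand setting are not given in the sources used here. The labels do not say whether mice shared cages or litters, so p-values measure the spread between these mice. No 2 livers of a group differed by less than sampling noise (smallest chi-square per degree of freedom 46.1).

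The counts were analysed with edgeR 4.0.16 (filterByExpr, TMM, quasi-likelihood test), limma 3.58.1 and DESeq2 1.42.0 in R 4.3.3, with Benjamini-Hochberg adjustment over all 14143 tested genes and a threshold of 0.05. Standard errors and 95% intervals were derived from edgeR's F statistics and cover spread between mice. Log2 CPM used a prior count of 2, and ratios of counts added 0.5 to each. Symbols and lengths came from GENCODE M21 and 1081 identifiers had none; the authors' table had 0 unused columns. Scripts were tested on simulated data. The text names all 10 members, the genes of each list past the threshold and otherwise the 4 with the smallest p, and the 3 most alike genes for 5 members; list genes called by DESeq2 and genes given for mouse 15 were picked with their values in view. An allele of the mice and 1 list gene are not reported here. The members and lists were chosen with earlier results of these data known. The alternatives were RLE, upper-quartile and library-total scaling, no filter, at least 10 counts in every liver, DESeq2, limma-voom, a threshold of 0.1, another gene length, 2 added to counts and leaving out each mouse.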

Additional observations from a re-analysis of the deposited data

Results flagged for a closer look

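Among the 30 combinations of a member or ratio with a group of 5 livers, 2 had a sample far from the others by Dixon's criterion (gap over range above 0.71), where chance flags about 1 in 20. Both concern NCACS mouse 15. The gap over range was 0.835 for log2 CPM of *Pdk4* and 0.857 for the log2 ratio of *Pdk4* to *Pdk2*. These measures share the *Pdk4* counts and are not independent.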

How the results depend on the processing

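No paired analysis was possible because no mouse number occurs in both groups. None of the 10 genes of pyruvate dehydrogenase control had an adjusted p under 0.05 in any fit run, nor under 0.1 in edgeR's test of all 10 livers; *Mpc2* had 0.0854 in DESeq2. The number of genes called over the whole table was 538. It moved to 1237 at a threshold of 0.1 and to 1386 in DESeq2 (672 of them higher in CACS). With each mouse left out it was 178 (without NCACS mouse 11) to 519 (without CACS mouse 17). The latter fits had fewer livers, and the cause of these moves was not tested. Of the 80 tested list genes 2 were called, 16 in DESeq2, 1 with library totals, with no filter or in limma-voom, and 0 to 2 with a mouse left out. At least 10 counts in every liver removed *Pdk3* from the test, so it has no value there.

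With each mouse left out, the log2 fold change ran from -0.22 to 0.06 for *Pdk3* (above 0 without NCACS mouse 12 at 0.03, NCACS mouse 13 at 0.01, CACS mouse 18 at 0.060 or CACS mouse 19 at 0.03), from -0.045 to 0.21 for *Ldha* (-0.044 without NCACS mouse 14, -0.045 without CACS mouse 18) and from -1.04 to 0.24 for *Pdk4* (0.24 without NCACS mouse 15). The log2 ratio difference ran from -0.53 to 0.28 for *Pdk4* to *Pdk2* and from -0.24 to 0.00057 for *Ldha* to *Pdha1*, the last without NCACS mouse 13. The level of *Pdha1* minus *Mpc2* was -0.27 with the longest transcript. *Pdp1* minus *Pdk3* ran from 0.18 to 0.29 with single mice left out, passed the threshold without NCACS mouse 11, 12 or 13, and was 0.055 with the longest transcript. Other members kept their direction in every fit. The 9 to 24 counts of *Pdk3* and 19 to 54 of *Pdp1* are the lowest of the 10 genes.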
